A study of Homo sapiens with 40 samples.

Results

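The 10 genes described here are targets of the transcription factor p53 that act in programmed cell death: PMAIP1 (ENSG00000141682_at), BBC3 (ENSG00000105327_at), BAX (ENSG00000087088_at), FAS (ENSG00000026103_at), TNFRSF10A (ENSG00000104689_at), TNFRSF10B (ENSG00000120889_at), APAF1 (ENSG00000120868_at), LRDD (ENSG00000177595_at, now called PIDD1), AEN (ENSG00000181026_at) and TP53I3 (ENSG00000115129_at). They were chosen by name, and all 10 were found among the 22069 genes on the arrays. Transcripts were measured on 40 Affymetrix Human WT 1.1 arrays in U2OS, an osteosarcoma cell line, and hTERT-RPE1, a retinal pigment epithelial line immortalized with telomerase. Cells received 15 nM of pooled siRNA against CASP8AP2 (also called FLASH), NPAT or HINFP, which regulate histone genes, or a non-targeting control siRNA. On days 1 and 2, control and CASP8AP2 siRNA were compared in 3 arrays per group, and on day 3 all 4 siRNAs were compared in 2 arrays per group, which gave 16 groups. The methods of the study state that the day 3 duplicates were transfected simultaneously, so the p-values for day 3 measure a spread that may be largely technical, although the labels call all replicates biological.

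In response to damage or stress, p53 accumulates and activates genes that stop the cell cycle, repair DNA or kill the cell. The genes of the killing arm fall into a mitochondrial branch and a receptor branch. In the first, BH3-only proteins such as those made from PMAIP1 (NOXA) and BBC3 (PUMA) neutralize survival proteins of the BCL2 family, BAX then opens the outer mitochondrial membrane, and APAF1 assembles the apoptosome that activates caspase 9. In the second, the surface receptors FAS, TNFRSF10A (TRAIL receptor DR4) and TNFRSF10B (TRAIL receptor DR5) recruit caspase 8. LRDD encodes a death domain protein that acts as a scaffold for caspase 2, AEN an exonuclease that acts on DNA in dying cells, and TP53I3 (PIG3) a quinone oxidoreductase linked to oxidative stress.

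The siRNAs lowered their targets, which checks the array labels. Over the 3 days the log2 difference of CASP8AP2 under its own siRNA was between -0.76 and -0.85 in hTERT-RPE1 and between -1.18 and -1.73 in U2OS cells, that of NPAT was -1.31 and -1.59 on day 3, and that of HINFP -1.05 and -1.64. Replicate arrays correlated with r between 0.9946 and 0.9977 over all genes, and no array stood apart. The pigment epithelium markers RLBP1 and BEST1 lay between the 22nd and 35th percentile of the hTERT-RPE1 arrays, near their place on the U2OS arrays. Of the osteoblast markers, IBSP lay at or below the 34th percentile in both lines, and RUNX2 was higher in hTERT-RPE1 (log2 9.57 on day 1 with control siRNA) than in U2OS cells (7.34). These few markers therefore do not show the tissue of origin of either line. Levels are given as deposited log2 values, on which a difference of 1 is a doubling. Day 3 was taken as normalized apart from the first 2 days, and no level is compared across that gap.

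With CASP8AP2 siRNA the transcripts of a subset of these genes rose. In hTERT-RPE1 cells PMAIP1 and TNFRSF10A led, with a 2.11-fold and a 2.25-fold rise on day 3, and on days 2 and 3 both rose more there than in U2OS cells. In U2OS cells most rises came on day 2, in FAS, APAF1, TNFRSF10B, TP53I3, PMAIP1 and LRDD, with APAF1 the highest at 1.40-fold. BBC3 did not pass the test with any siRNA, and BAX was called once, as a fall. These are RNA levels of whole cultures, in which a small change in all cells, a large change in some cells and a change in the number of such cells cannot be told apart.

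Differences from the control siRNA of that line and day were tested with limma, and a call means an adjusted p below 0.05 with adjustment over all 22069 genes. In hTERT-RPE1 cells, CASP8AP2 siRNA raised 1 of the 10 genes on day 1, when 0.449% of all genes were called higher, 6 on day 2 (4.25% of all genes) and 5 on day 3 (3.62%). In U2OS cells it raised 2 on day 1 (2.86% of all genes called higher), 6 on day 2 (11.8%) and 1 on day 3 (7.91%), and it lowered 1 on day 2, when 13.1% of all genes were called lower. NPAT siRNA raised 3 in hTERT-RPE1 (2.37%) and 1 in U2OS cells (3.84%), where it also lowered 1 (4.29%). HINFP siRNA raised 4 in hTERT-RPE1 (2.13%) and 2 in U2OS cells (4.59%). Of the 100 pairs of gene and comparison, 31 were thus called higher and 2 lower. The heat map of log2 differences shows these calls.

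In hTERT-RPE1 cells, the median log2 difference of the 10 genes under CASP8AP2 siRNA was 0.05 on day 1, 0.22 on day 2 and 0.40 on day 3, beside medians over all genes of -0.004, -0.02 and -0.03. In U2OS cells it was 0.12, 0.28 and 0.03, beside 0.005, -0.01 and 0.02. With NPAT and HINFP siRNA it was 0.09 and 0.13 in hTERT-RPE1 (-0.03 and -0.02 over all genes) and -0.04 and -0.02 in U2OS cells (-0.002 and -0.009). The counts of higher and lower genes depend on the scaling of the arrays. On day 2 in hTERT-RPE1 cells, 66.3% of all called genes were higher, but 41.9% after each array was centred on its median, when 4 of the 10 genes were still called higher. After centring, 703 rather than 937 of all 22069 genes were called higher there. With cyclic loess, 60.6% rather than 47.3% of the genes called in U2OS cells on day 2 were higher, and 6 of the 10 were called, all higher. Cyclic loess called 3238 rather than 2600 of all genes higher there. Centring moved the split by over 10 percentage points in 3 of the day 3 comparisons with control: 31.5% rather than 41.9% higher for CASP8AP2 in U2OS, 33.0% rather than 47.2% for NPAT in U2OS (57.3% with cyclic loess), and 62.4% rather than 51.5% for HINFP in hTERT-RPE1 cells. A fit of only the arrays compared has fewer residual degrees of freedom and takes the spread from those arrays alone. In hTERT-RPE1 cells it kept PMAIP1 and TNFRSF10A with CASP8AP2 siRNA (days 2 and 3) and PMAIP1 with NPAT siRNA. In U2OS cells it kept APAF1 with NPAT siRNA and all the day 2 calls but LRDD. Every other call against control was lost. Over all genes on day 2, this fit called 495 rather than 1413 in hTERT-RPE1 and 4974 rather than 5492 in U2OS cells. On day 3 in hTERT-RPE1 cells, 75.2% rather than 46.9% of the called genes were higher for NPAT and 76.0% rather than 51.5% for HINFP siRNA. The part of unequal spread between the lines in these losses was not tested.

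**Figure D1:**
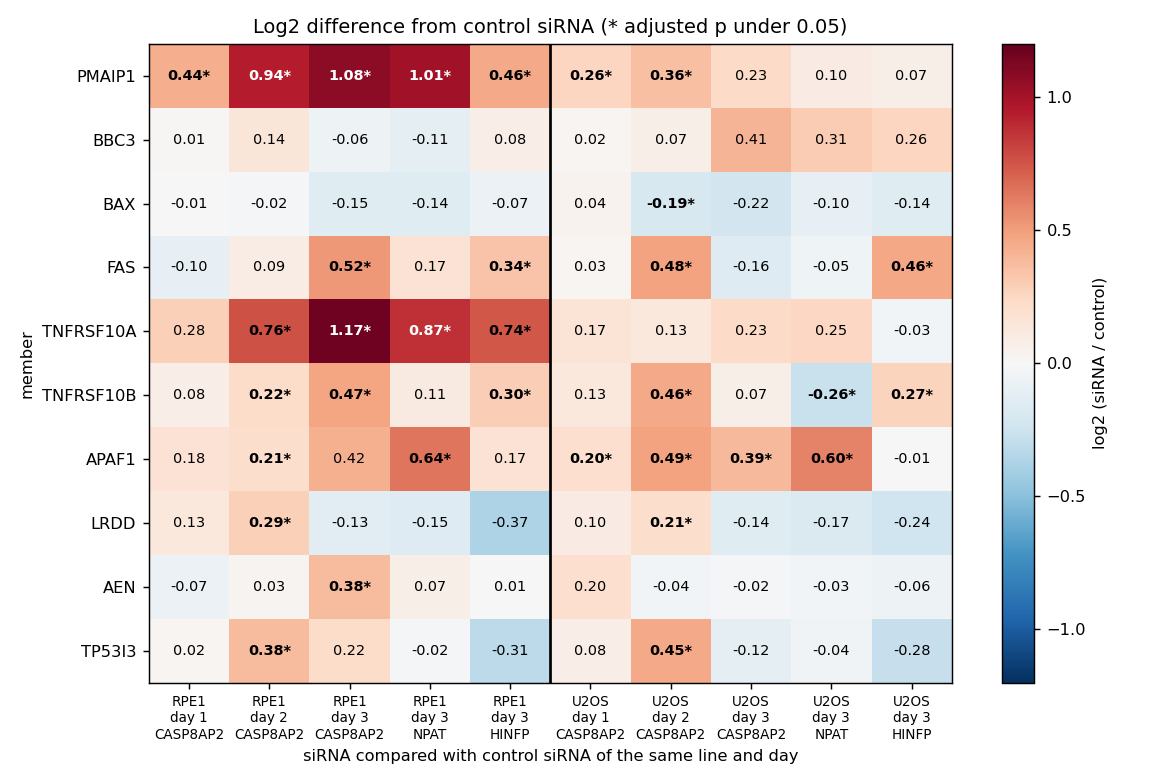
Log2 difference from control siRNA of the same line and day for the 10 genes (rows) in the 10 comparisons (columns, RPE1 standing for hTERT-RPE1), coloured from blue (lower) to red (higher), with an asterisk where the limma adjusted p was under 0.05. PMAIP1 was called in all 5 hTERT-RPE1 comparisons and TNFRSF10A in 4, while TNFRSF10A was called in 0 of 5 in U2OS cells.

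PMAIP1 was the gene of this group called most often, in 7 of 10 comparisons. In hTERT-RPE1 cells on day 1, the control arrays read 8.40, 8.50 and 8.49 and the CASP8AP2 siRNA arrays 8.96, 8.99 and 8.75. On day 2 the controls read 7.95, 8.25 and 8.12 and the CASP8AP2 arrays 8.99, 9.03 and 9.13. On both days every CASP8AP2 array lay above every control array, and the distance between the groups was wider on day 2. The log2 difference was 0.44 on the first day (SE 0.07, adjusted p 0.0027) and 0.94 on the second (SE 0.07, adjusted p 1.3e-08), which is a 1.92-fold rise. The day 2 effect exceeded that of day 1 by 0.51 (SE 0.10, adjusted p 0.0164), but this call was lost without CASP8AP2 replicate 3 of either day or control replicate 2 of day 1 (0.44 to 0.49) and after centring on the median. It was the sole member among the 0.652% of all genes for which the CASP8AP2 effect in hTERT-RPE1 cells differed between the days.

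On day 3 PMAIP1 in hTERT-RPE1 cells read 8.09 and 8.20 with control, 9.27 and 9.18 with CASP8AP2, 9.17 and 9.15 with NPAT, and 8.81 and 8.40 with HINFP siRNA. The CASP8AP2 and NPAT arrays formed 1 band about a log2 unit above control, and the HINFP duplicates lay between, far from each other. The log2 differences from the same 2 control arrays were 1.08 (SE 0.12, adjusted p 8.7e-05) for CASP8AP2, 1.01 (adjusted p 0.000473) for NPAT and 0.46 (adjusted p 0.0448) for HINFP siRNA. The CASP8AP2 and NPAT calls held without any 1 array, while the HINFP call was lost without HINFP replicate 1 or either control array (0.25 to 0.51). In U2OS cells PMAIP1 started from a higher level. On day 1 the controls read 9.95, 9.98 and 9.84 and the CASP8AP2 arrays 10.15, 10.16 and 10.24. On day 2 they read 10.06, 10.02 and 10.09 against 10.42, 10.41 and 10.42. The CASP8AP2 arrays were again all above control, by 0.26 on day 1 (SE 0.07, adjusted p 0.0311) and by 0.36 on day 2 (SE 0.07, adjusted p 0.000652). The day 1 call held only without control replicate 2 among the 6 arrays that can be left out, and was otherwise lost at 0.22 to 0.28, and also after centring. On day 3 in U2OS cells no PMAIP1 difference was called, with 0.23 for CASP8AP2 (95% interval -0.02 to 0.48), 0.10 for NPAT and 0.07 for HINFP siRNA.

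The promoter of PMAIP1 is shown because this gene carried the most calls. Start sites and sequences come from RefSeq on GRCh38.p14, with 250 bases before and 50 after each start, and 8 of the 10 genes matched, TNFRSF10A and TNFRSF10B being without an entry. The p53 response element, 2 half-sites of 10 bases each with up to 13 bases between them, was searched with the core C and G of each half-site required, and since each half-site is its own reverse complement the search covers both strands. The closest match in the PMAIP1 window spanned positions -185 to -166 relative to the start and differed from the element at 3 of 20 letters, with no spacer. A match with at most 3 mismatches was found in 12.8% of all 35116 windows. The stretch just before the start (chr18:59899756-59899995, plus strand) is printed here, with the matched element in capitals:
PMAIP1: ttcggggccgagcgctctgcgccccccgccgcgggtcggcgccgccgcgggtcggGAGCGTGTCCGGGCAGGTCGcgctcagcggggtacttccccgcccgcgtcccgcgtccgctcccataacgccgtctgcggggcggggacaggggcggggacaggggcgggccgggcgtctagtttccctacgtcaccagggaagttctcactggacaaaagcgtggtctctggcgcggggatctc

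Closer matches, with 2 mismatches and no spacer, spanned positions -122 to -103 relative to the most downstream of the 3 FAS start sites and -34 to -15 relative to the AEN start, and 2.93% of all windows held a match that close. Both elements are given with 5 flanking bases on each side, on the plus strand, the element in capitals (FAS at chr10:88991304-88991333 and AEN at chr15:88621301-88621330):
FAS: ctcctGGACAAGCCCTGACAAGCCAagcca
AEN: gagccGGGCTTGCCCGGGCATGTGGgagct
In the windows of APAF1, BBC3, LRDD and TP53I3 the closest match had 5 mismatches, the median over all windows, and in that of BAX it had 6. In the windows of the other FAS start sites the closest match had 4 mismatches, and 35.4% of all windows held a match at least that close. Against control, FAS was called in 4 comparisons, AEN in 1, PMAIP1 in 7, APAF1 in 6, LRDD and TP53I3 in 2 each, BAX in 1 and BBC3 in 0. Whether the calls go with the elements was not tested. These are matches of letters in 1 window, and binding was not measured.

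BBC3, the other BH3-only gene, passed the test in 0 of 10 comparisons with limma, and its p without adjustment was under 0.05 in 1 of them. That one was CASP8AP2 siRNA in U2OS cells on day 3, where the controls read 6.00 and 6.23 and the CASP8AP2 arrays 6.65 and 6.39, a difference of 0.41 (SE 0.14, 95% interval 0.09 to 0.72, adjusted p 0.0679). The 3 siRNA groups all lay above control there, with 0.31 for NPAT and 0.26 for HINFP siRNA. BBC3 was the most variable of the 10 genes between replicates on days 1 and 2. In hTERT-RPE1 controls it read 5.26, 5.44 and 4.89 on day 1 and 5.61, 5.42 and 4.89 on day 2. The SE of its difference on those days was 0.18, against 0.06 to 0.10 for the other 9 genes, so that its interval in hTERT-RPE1 cells on day 2 ran from -0.24 to 0.53.

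BAX, the pore-forming effector, was called once, as a fall. Its log2 difference was between -0.22 and 0.04 in all 10 comparisons. In U2OS cells on day 2 the controls read 10.31, 10.28 and 10.30 and the CASP8AP2 arrays 10.09, 10.12 and 10.12, with no overlap, a difference of -0.19 (SE 0.07, adjusted p 0.0442). This call was lost without any 1 of the 6 arrays (-0.20 to -0.18) and with cyclic loess. On day 3 in U2OS cells BAX read 9.64 and 9.62 with control and 9.41 on both CASP8AP2 arrays, a difference of -0.22 (adjusted p 0.0965) that was called after centring on the median.

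Of the 3 death receptor genes, TNFRSF10A was called in 4 of the 5 hTERT-RPE1 comparisons. On day 2 its controls read 5.20, 5.36 and 5.10 and its CASP8AP2 arrays 5.87, 5.93 and 6.13, a difference of 0.76 (SE 0.10, adjusted p 2.38e-05). On day 3 the controls read 4.96 and 5.31, against 6.23 and 6.39 with CASP8AP2, 5.93 and 6.10 with NPAT, and 6.09 and 5.67 with HINFP siRNA. All 6 siRNA arrays were above both controls, and both CASP8AP2 arrays were above the other 4. The differences were 1.17 for CASP8AP2 (SE 0.16, adjusted p 0.000592), 0.87 for NPAT (adjusted p 0.008) and 0.74 for HINFP siRNA (adjusted p 0.0228). The NPAT call was lost without NPAT replicate 2 or control replicate 1 (0.70 and 0.79), and the HINFP call without HINFP replicate 1 or control replicate 1 (0.53 and 0.56). On day 1 the CASP8AP2 arrays (5.87, 5.83 and 5.61) were already above the controls (5.45, 5.48 and 5.53), by 0.28 (SE 0.10, adjusted p 0.262). In U2OS cells TNFRSF10A read between 4.23 and 4.83 on every array, below the median of its array, and its differences were between -0.03 and 0.25. In hTERT-RPE1 controls it lay near the median of the array, at percentiles 50.2, 47.0 and 48.6 on days 1, 2 and 3. The U2OS controls lay at percentiles 36.3, 37.2 and 37.6. The part of low signal in the differences of either line was not tested.

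TNFRSF10B was called in 6 comparisons, 3 in each line. In hTERT-RPE1 cells on day 3 it read 9.66 and 9.63 with control, 10.12 and 10.12 with CASP8AP2, 9.71 and 9.79 with NPAT, and 9.97 and 9.91 with HINFP siRNA. The 4 groups did not overlap, and they ranked CASP8AP2, HINFP, NPAT and control from high to low. The differences from control were 0.47 (SE 0.07, adjusted p 0.00191) for CASP8AP2, 0.30 (adjusted p 0.0415) for HINFP and 0.11 (95% interval -0.05 to 0.27, adjusted p 0.469) for NPAT siRNA. In U2OS cells on day 3 the control arrays read 9.68 and 9.61, the CASP8AP2 arrays 9.73 and 9.71, the NPAT arrays 9.36 and 9.41, and the HINFP arrays 9.89 and 9.94. NPAT siRNA thus lowered it (-0.26, SE 0.07, adjusted p 0.0457) and HINFP siRNA raised it (0.27, adjusted p 0.0377). Each of the HINFP and NPAT calls on TNFRSF10B in either line was lost without any 1 of its 4 arrays (0.24 to 0.33 for HINFP and -0.30 to -0.23 for NPAT). The NPAT call was also lost with cyclic loess (-0.18), the HINFP call in U2OS cells after centring (0.25), and that in hTERT-RPE1 cells with a replicate block. In U2OS cells on day 2 it read 9.09, 9.01 and 8.98 with control and 9.44, 9.58 and 9.44 with CASP8AP2 siRNA, a difference of 0.46 (SE 0.06, adjusted p 1.99e-06). The same comparison in hTERT-RPE1 cells gave 0.22 (SE 0.06, adjusted p 0.02), lost without CASP8AP2 replicate 2 or 3 or control replicate 1 (0.17 to 0.22) and after centring.

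FAS responded late in hTERT-RPE1 cells and on day 2 in U2OS cells. In hTERT-RPE1 cells its arrays overlapped on day 2 (9.39, 9.06 and 9.24 with control, 9.27, 9.34 and 9.34 with CASP8AP2 siRNA). On day 3 the controls read 8.75 and 8.85, the CASP8AP2 arrays 9.38 and 9.26, the NPAT arrays 9.00 and 8.94, and the HINFP arrays 9.15 and 9.12. All 3 siRNA groups were above control there, by 0.52 (SE 0.09, adjusted p 0.00295) for CASP8AP2, 0.34 (adjusted p 0.0449) for HINFP and 0.17 (adjusted p 0.293) for NPAT siRNA. The HINFP call was lost without any 1 of its 4 arrays (0.29 to 0.39) and with a replicate block. In U2OS cells FAS read 7.77, 7.66 and 7.64 with control and 7.67, 7.69 and 7.79 with CASP8AP2 siRNA on day 1, which overlap. On day 2 it read 8.20, 8.13 and 7.95 with control and 8.62, 8.55 and 8.57 with CASP8AP2, a rise of 0.48 (SE 0.07, adjusted p 2.99e-05). On day 3 the CASP8AP2 arrays (8.22 and 8.34) were below the controls (8.36 and 8.52), a difference of -0.16 (95% interval -0.34 to 0.03, adjusted p 0.24). HINFP siRNA was the one that raised FAS in U2OS cells on day 3, to 8.89 and 8.91, by 0.46 (SE 0.09, adjusted p 0.00461), a call lost without control replicate 1 (0.38).

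**Figure D2:**
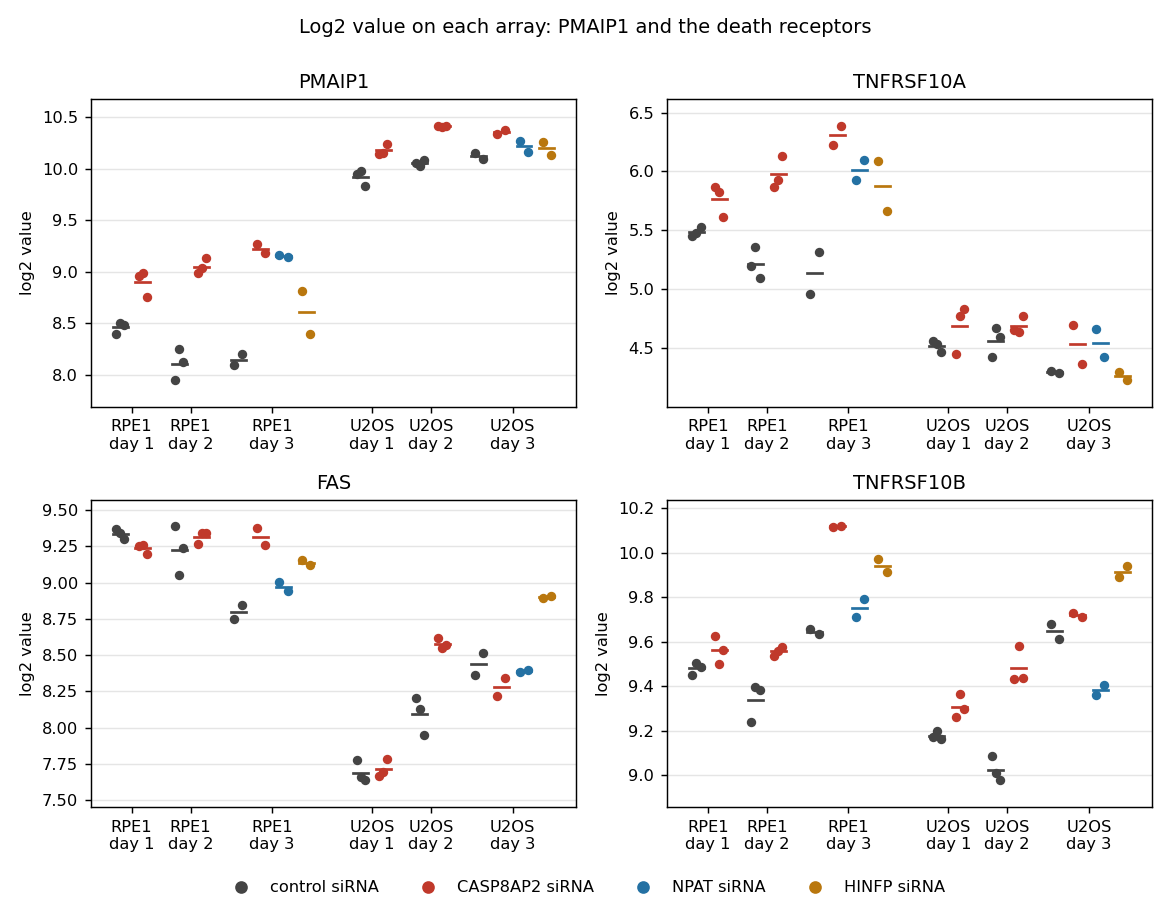
Deposited log2 value on every array (points) with the group mean (line) for PMAIP1, TNFRSF10A, FAS and TNFRSF10B, by cell line (RPE1 standing for hTERT-RPE1), day and siRNA. In hTERT-RPE1 cells the CASP8AP2 arrays of PMAIP1 and TNFRSF10A lie above the controls on all 3 days, while in U2OS cells FAS on day 3 is above control with HINFP siRNA alone. Days 1 and 2 and day 3 were taken as normalized separately.

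APAF1 was called in 6 comparisons, 4 of them in U2OS cells. On day 2 in U2OS cells its controls read 5.95, 6.06 and 6.04 and its CASP8AP2 arrays 6.53, 6.53 and 6.46, a rise of 0.49 (SE 0.06, adjusted p 2.64e-06). On day 3 they read 6.17 and 6.29 with control, 6.54 and 6.70 with CASP8AP2, 6.73 and 6.92 with NPAT, and 6.22 and 6.23 with HINFP siRNA. CASP8AP2 and NPAT arrays were all above control and above the HINFP arrays, which lay within the control range. The differences were 0.39 (SE 0.12, adjusted p 0.0452) for CASP8AP2, 0.60 (adjusted p 0.0114) for NPAT and -0.01 (95% interval -0.27 to 0.26) for HINFP siRNA. The CASP8AP2 call was lost without any 1 of its 4 arrays (0.31 to 0.47) and after centring, and the NPAT call without NPAT replicate 2 or control replicate 1 (0.50 and 0.54). In hTERT-RPE1 cells on day 3 the NPAT arrays read 7.83 and 7.75 and the controls 6.93 and 7.36, a rise of 0.64 (adjusted p 0.0114) that was lost without NPAT replicate 1 or control replicate 1 (0.43 and 0.60). The CASP8AP2 arrays read 7.56 and 7.58 there, 0.42 above control (adjusted p 0.0658). On days 1 and 2 APAF1 rose by small amounts, 0.20 in U2OS cells on day 1 (adjusted p 0.0492) and 0.21 in hTERT-RPE1 cells on day 2 (adjusted p 0.0352). The first was lost without any 1 of the arrays but control replicate 3 (0.16 to 0.23), the second without CASP8AP2 replicate 2 or 3 or control replicate 1 or 2 (0.19 to 0.22), and both after centring.

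TP53I3 and LRDD rose on day 2 in both lines and were called on neither of the other days. TP53I3 read 7.25, 7.24 and 7.40 with control and 7.62, 7.77 and 7.63 with CASP8AP2 siRNA in hTERT-RPE1 cells, a rise of 0.38 (SE 0.07, adjusted p 0.00192). In U2OS cells it read 7.89, 8.00 and 8.01 against 8.34, 8.47 and 8.44, a rise of 0.45 (SE 0.07, adjusted p 6.58e-05). Neither line showed an overlap of the groups. LRDD rose by 0.29 in hTERT-RPE1 cells (SE 0.06, adjusted p 0.00398) and by 0.21 in U2OS cells (adjusted p 0.0118), the latter lost without CASP8AP2 replicate 3 or control replicate 2 (0.16 and 0.17). On day 3 the differences of LRDD were between -0.37 and -0.13 in all 6 comparisons, and those of TP53I3 with HINFP siRNA were -0.31 in hTERT-RPE1 (arrays 7.10 and 6.71, controls 7.08 and 7.35) and -0.28 in U2OS cells (arrays 7.81 and 7.81, controls 8.10 and 8.08), none of them called. With CASP8AP2 siRNA on day 3 the TP53I3 arrays in hTERT-RPE1 cells read 7.41 and 7.45, both above the controls. In U2OS cells they read 7.96 and 7.99, both below the controls. Neither difference was called.

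AEN was called in 1 comparison, that of CASP8AP2 siRNA on day 3 in hTERT-RPE1 cells. The controls read 7.71 and 7.73 and the CASP8AP2 arrays 8.12 and 8.08, a rise of 0.38 (SE 0.10, adjusted p 0.0499) that was lost without any 1 of the 4 arrays (0.36 to 0.40), with cyclic loess and with a replicate block. In the other 9 comparisons its difference was between -0.07 and 0.20. The largest of these, in U2OS cells on day 1, came from controls at 9.35, 9.47 and 9.50 and CASP8AP2 arrays at 9.59, 9.71 and 9.64, which do not overlap (adjusted p 0.0694).

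**Figure D3:**
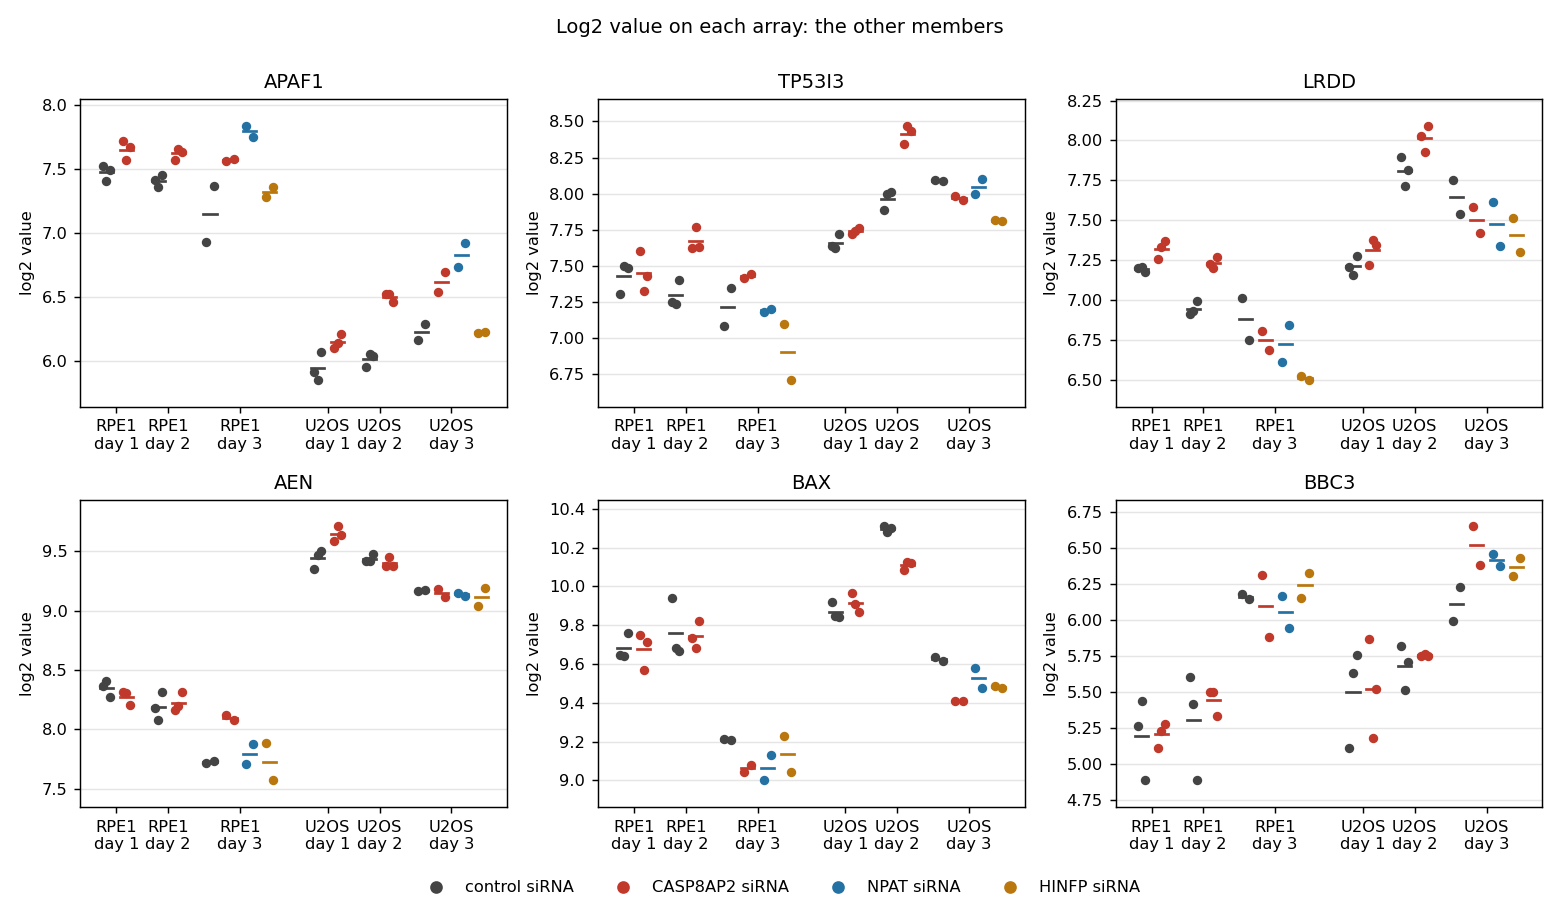
Deposited log2 value on every array (points) with the group mean (line) for APAF1, TP53I3, LRDD, AEN, BAX and BBC3, by cell line (RPE1 standing for hTERT-RPE1), day and siRNA. The CASP8AP2 arrays of TP53I3 and LRDD lie above the controls in both lines on day 2, and BAX lies below control in U2OS cells on day 2. Days 1 and 2 and day 3 were taken as normalized separately.

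Whether a response differed between the lines was tested as the effect in U2OS minus that in hTERT-RPE1 cells. The siRNAs lowered their own targets less in hTERT-RPE1 than in U2OS cells, and the part of this in the differences was not tested. On day 1 limma called 0 of the 10 genes for CASP8AP2 siRNA (1 had an unadjusted p under 0.05), beside 0.689% of all genes. On day 2 it called 4, beside 9.39%. PMAIP1 (-0.59, SE 0.10, adjusted p 0.000527) and TNFRSF10A (-0.63, SE 0.14, adjusted p 0.00472) rose more in hTERT-RPE1 cells, and FAS (0.39, adjusted p 0.0171) and APAF1 (0.27, adjusted p 0.0478) more in U2OS cells. The FAS difference was lost without U2OS control replicate 3 (0.32), and that of APAF1 without any 1 of the 12 arrays but hTERT-RPE1 control replicate 2 (0.24 to 0.29). On day 3 limma called 4, beside 9.55% of all genes, all with a larger rise in hTERT-RPE1 cells: PMAIP1 (-0.84, SE 0.16, adjusted p 0.00809), FAS (-0.68, SE 0.12, adjusted p 0.00523), TNFRSF10A (-0.94, SE 0.22, adjusted p 0.0212) and TNFRSF10B (-0.40, SE 0.10, adjusted p 0.0305). For TNFRSF10A the call was lost without CASP8AP2 replicate 2 or control replicate 1 of either line, or control replicate 2 of U2OS cells (-0.95 to -0.76). For TNFRSF10B it was lost without any 1 of the 8 arrays but control replicate 1 of hTERT-RPE1 cells (-0.43 to -0.37), and with cyclic loess (-0.27). Of all genes called in these tests, the share with a larger value in U2OS cells was 48.6% on day 2 (61.4% with cyclic loess) and 42.4% on day 3 (32.0% after centring). FAS differed between the lines in opposite directions on days 2 and 3, which were taken as normalized separately and were fitted separately.

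For NPAT siRNA the lines differed in PMAIP1 (-0.91, SE 0.16, adjusted p 0.0121), beside 3.46% of all genes, a call lost without NPAT replicate 2 or control replicate 1 in U2OS or NPAT replicate 1 in hTERT-RPE1 cells (-0.90 to -0.86). For HINFP siRNA limma called 0 of the 10 (2 with an unadjusted p under 0.05), beside 3.15% of all genes, with TNFRSF10A at -0.77 (95% interval -1.26 to -0.29, adjusted p 0.0852). After centring the share of positive calls fell from 53.9% to 37.0% for NPAT and from 54.4% to 41.9% for HINFP siRNA over all genes. The effect of CASP8AP2 siRNA in U2OS cells was larger on day 2 than on day 1 for FAS (0.46, adjusted p 0.0082), TP53I3 (0.37, adjusted p 0.0317), TNFRSF10B (0.33, adjusted p 0.0128) and APAF1 (0.28, adjusted p 0.0479), 4 of the 10 genes beside 7.04% of all genes, of which 56.8% were positive (74.0% with cyclic loess). Of these, TP53I3 was lost without CASP8AP2 replicates 1 or 2 or control replicate 3 of day 1, or CASP8AP2 replicates 2 or 3 or control replicate 1 of day 2 (0.33 to 0.37). The call on APAF1 was lost without any 1 of the 12 arrays but CASP8AP2 replicate 3 and control replicate 2 of day 1 (0.22 to 0.30). PMAIP1 in U2OS cells differed by 0.10 between the days (95% interval -0.11 to 0.31).

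The 3 siRNAs were set against each other on day 3 within a line. In hTERT-RPE1 cells PMAIP1 and TP53I3 were higher with CASP8AP2 than with HINFP siRNA, by 0.62 (SE 0.12, adjusted p 0.00931) and 0.53 (adjusted p 0.0244), beside 3.81% of all genes called. TNFRSF10B was higher with CASP8AP2 than with NPAT siRNA by 0.37 (adjusted p 0.02), beside 2.38%. PMAIP1 was higher with NPAT than with HINFP siRNA by 0.55 (adjusted p 0.0199), beside 3.63%. For PMAIP1, CASP8AP2 and NPAT siRNA differed by 0.07, with a 95% interval from -0.18 to 0.32. Leaving out HINFP replicate 2 or CASP8AP2 replicate 1 ended the PMAIP1 difference of CASP8AP2 and HINFP (0.41 and 0.57), and leaving out either of these or CASP8AP2 replicate 2 ended that of TP53I3 (0.33 to 0.54). Without HINFP replicate 2 or either NPAT array the PMAIP1 difference of NPAT and HINFP was lost (0.34 to 0.56), and without any 1 of its 4 arrays the TNFRSF10B difference was (0.33 to 0.41).

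In U2OS cells the siRNAs separated the receptor genes and APAF1. FAS was lower with CASP8AP2 than with HINFP siRNA (-0.62, SE 0.09, adjusted p 0.00144), beside 5.6% of all genes called. Against HINFP siRNA, NPAT siRNA gave lower FAS (-0.51, adjusted p 0.00566) and TNFRSF10B (-0.53, SE 0.07, adjusted p 0.00162) and higher APAF1 (0.60, adjusted p 0.0165), beside 4.04% of all genes. TNFRSF10B was higher with CASP8AP2 than with NPAT siRNA by 0.34 (adjusted p 0.0262), beside 3.5%, lost without any 1 of the 4 arrays (0.32 to 0.36). The APAF1 difference was lost without NPAT replicate 2 or either HINFP array (0.51 to 0.60). The difference of FAS between CASP8AP2 and HINFP siRNA and those of FAS and TNFRSF10B between NPAT and HINFP siRNA held without any 1 array.

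The lines also differed with control siRNA alone. After centring, 35.4% rather than 53.4% of all genes called on day 1 and 31.1% rather than 53.4% of those called on day 2 were higher in U2OS cells. Of the 10 genes, 8 were called on day 1, 9 on day 2 and 8 on day 3, beside 48.7%, 50.8% and 43.8% of all genes. PMAIP1 was higher in U2OS cells on each day, by 1.46, 1.95 and 1.98 (SE 0.07, 0.07 and 0.12), and AEN by 1.09, 1.25 and 1.45. FAS was lower in U2OS cells on each day, with differences of -1.65, -1.13 and -0.36, as were APAF1 (-1.52, -1.39 and -0.92) and TNFRSF10A (-0.97, -0.66 and -0.84). The BH3-only gene PMAIP1 and the nuclease gene AEN were thus higher in the tumour line, and the apoptosome gene APAF1 and the receptor genes FAS and TNFRSF10A lower. TNFRSF10B was lower in U2OS cells on days 1 and 2 (-0.30 and -0.32), and 0.00 apart on day 3 (95% interval -0.16 to 0.16). LRDD was 0.02 apart on day 1 and higher in U2OS cells by 0.86 on day 2 and 0.77 on day 3. BAX was higher by 0.19, 0.54 and 0.42 and TP53I3 by 0.23, 0.67 and 0.88. BBC3 was not called on any day, with 0.31, 0.38 and -0.05. Centring on the median moved the median of all genes by -0.12 on day 1 and -0.16 on day 2, and it ended the day 1 calls on BAX (0.06) and TP53I3 (0.10). The BAX call of day 1 was also lost with cyclic loess (0.15) and without U2OS control replicate 1 or hTERT-RPE1 control replicate 1 or 2 (0.16 to 0.17), that of TP53I3 without U2OS control replicate 3 or hTERT-RPE1 control replicate 1 (0.17 and 0.20), and the FAS call of day 3 without U2OS control replicate 1 (-0.28).

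**Figure D4:**
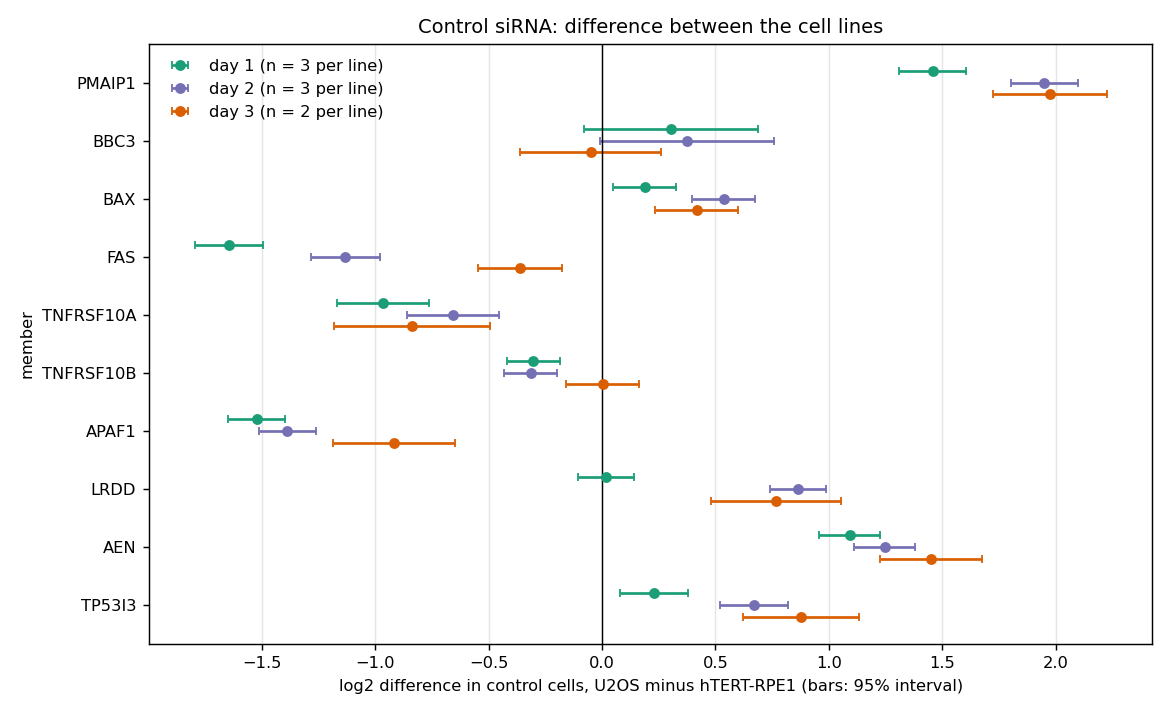
Log2 difference between control U2OS and control hTERT-RPE1 cells for the 10 genes on days 1, 2 and 3 (points, n = 3, 3 and 2 arrays per line), with 95% intervals from limma (bars). PMAIP1, AEN, BAX and TP53I3 lie above 0 and FAS, APAF1 and TNFRSF10A below 0 on all 3 days.

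To describe how the genes varied with each other, Pearson's r was computed over the 40 arrays after the mean of each cell line and day was subtracted. The arrays of a group share their siRNA, so the 40 points are not independent, and r is given as a description. PMAIP1 and TNFRSF10A were the most alike pair (r = 0.89), followed by FAS and TNFRSF10B (r = 0.74). APAF1 was most like PMAIP1 (r = 0.63) and LRDD most like TP53I3 (r = 0.54), and no other gene of the group had r above 0.10 with BBC3 or above 0.04 with BAX. Among the 1923 genes with a symbol paired by the authors, the most alike were LAMB3 for PMAIP1 (r = 0.90), SERPINB1 for TNFRSF10B (0.85), CYP11A1 for APAF1 (0.85), AHCYL2 for FAS (0.80), IL2RB for TP53I3 (0.77), CCDC86 for BAX (0.71), PRDX4 for AEN (0.67) and KREMEN2 for BBC3 (0.55). For TNFRSF10A it was PMAIP1 itself.

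Other genes were taken from 7 lists with 64 genes, of which 19 had a paired symbol and are the ones described. The lists cover death pathways, except 1 of p53 core, arrest and repair genes, which gave 2 of the 19. In hTERT-RPE1 cells under CASP8AP2 siRNA, 0 of the 19 were called by limma on day 1 (5 with an unadjusted p under 0.05), 3 on day 2 and 4 on day 3, all higher, while 0.793%, 6.4% and 6.15% of all genes were called in either direction. In U2OS cells day 1 had 1 higher and 1 lower (5.87% of all genes called), day 2 had 4 and 2 (24.9%), and day 3 had 3 and 3 (18.9%). The day 2 count in U2OS cells, 31.6% of the 19, was thus near the share of all genes. NPAT siRNA gave 1 higher in hTERT-RPE1 (5.04% of all genes called), and 1 higher and 2 lower in U2OS cells (8.13%), and HINFP siRNA 1 lower in each line (4.15% and 9.43%). CD82, a tetraspanin gene that is a p53 target, rose with CASP8AP2 siRNA in hTERT-RPE1 cells, by 0.89 on day 2 and by 1.67 on day 3 (adjusted p 6.4e-07 and 1.71e-05), with 0.68 and 0.49 in U2OS cells. CD82 was also called higher with NPAT siRNA in hTERT-RPE1 cells on day 3. BCL2L11, which encodes the BH3-only protein BIM, rose with CASP8AP2 siRNA by 0.55 on day 3 in hTERT-RPE1 (adjusted p 0.0308) and in U2OS cells by 0.56 on day 2 and 0.51 on day 3. BCL2L11 was also called higher with NPAT siRNA in U2OS cells on day 3. BID, a BH3-only gene whose product is cut by caspase 8, was lower in U2OS cells on day 3 with CASP8AP2 (-0.39) and NPAT siRNA (-0.41), and HRK, another BH3-only gene, was higher with CASP8AP2 siRNA on day 2 (0.33).

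In the receptor branch, CASP8, the caspase recruited by FAS and the TRAIL receptors, rose by 0.67 (adjusted p 0.000599) and TNFRSF1B, a TNF receptor gene, by 0.55 (adjusted p 0.00639) with CASP8AP2 siRNA on day 3 in the hTERT-RPE1 line. TNFRSF1B was also higher there on day 2 (0.52, adjusted p 0.0412) and in U2OS cells on day 3 (0.34, adjusted p 0.0323), and CASP8 in U2OS cells on day 1 (0.23, adjusted p 0.0238). The adaptor gene FADD was lower with CASP8AP2 siRNA in U2OS cells on day 3 (-0.29, adjusted p 0.0327). BIRC3, which encodes an inhibitor of apoptosis, fell in U2OS cells on day 3 with all 3 siRNAs, the difference being -1.45 for CASP8AP2 (SE 0.16, adjusted p 7.31e-05), -1.46 for NPAT and -0.83 for HINFP siRNA. BIRC3 was also called lower there on day 2 with CASP8AP2 siRNA. SIAH1, a ubiquitin ligase gene and p53 target, fell with CASP8AP2 siRNA in U2OS cells (-0.53 on day 1 and -0.37 on day 2), and PERP, a p53 target of the cell surface, rose by 0.18 on day 2 (adjusted p 0.0373). TP73, a transcription factor gene, fell with HINFP siRNA in hTERT-RPE1 cells (-0.63, adjusted p 0.025). These genes were picked for the symbols they have and do not stand for their pathways.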

How the data were processed

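The 40 arrays were grouped by the cell line, siRNA and day in their labels. The authors processed the scans in Bioconductor with affy, using custom probe sets, 1 per Ensembl gene. The labels name RMA, and the deposited values are log2 values for 22069 genes, without detection calls. The genome build and version of the grouping are not given in the sources used here. Array means were 6.00 to 6.05 (log2) on the first 2 days and 5.85 to 5.88 on day 3, so these sets were taken as normalized separately and each was fitted alone. Because array means are nearly equal, a change in total RNA per cell cannot be seen.

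The deposited values were fitted with limma 3.58.1 under R 4.3.3 (functions lmFit and eBayes, a mean for each of 8 groups, 16 and 8 residual degrees of freedom), without a filter or further normalization. All tests were two-sided, with Benjamini-Hochberg adjustment over 22069 genes in each of 26 comparisons. Of these, 10 set an siRNA against control, 5 tested differences between lines, 2 between days, 6 between siRNAs and 3 between control cells. The 3 siRNAs of a line on day 3 share 2 control arrays. Alternatives were fits of only the arrays compared and of all 40 arrays, a replicate block, cyclic loess, centring each array on its median, leaving out the dimmest 25% of genes, eBayes with trend and robust settings, and leaving out each array in turn. The number of arrays limits the precision, with a median SE over all genes of 0.09 and 0.11. The procedure was tested once on simulated data of 22069 genes. The noise was normal and independent, with the same spread for a gene in all groups. Unequal spread between groups or lines was therefore not part of this test. Simulating CASP8AP2 siRNA on day 2 in hTERT-RPE1, it recovered 80 of 100 changes of 0.5 and 100 of 100 of 1 (log2) with 12 false calls, and on day 3 it recovered 39 and 88 with 5 false calls.

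The 10 genes and all lists were chosen with earlier results of these data known. Symbols of PMAIP1, BBC3, BAX, APAF1 and LRDD and of all other named genes are those the authors paired with the identifiers, while FAS, TNFRSF10A, TNFRSF10B, AEN and TP53I3 are the usual symbols of theirs. Named were the 10 genes, the 3 targeted genes, the 3 list genes of each list with the largest called difference, and for each of the 10 the paired gene most like it. Some genes that this rule names are not reported here. Promoter sequences were taken from RefSeq on GRCh38.p14.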

Additional observations from a re-analysis of the deposited data

Results flagged for a closer look

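Effects of an siRNA that differed between the cell lines or between days, by the interaction term in limma, are collected here. On day 2, the effect of CASP8AP2 siRNA in U2OS minus that in hTERT-RPE1 cells was -0.59 for PMAIP1 and -0.63 for TNFRSF10A, and 0.39 for FAS and 0.27 for APAF1. On day 3 the same difference was -0.84 for PMAIP1, -0.68 for FAS, -0.94 for TNFRSF10A and -0.40 for TNFRSF10B, and for NPAT siRNA it was -0.91 for PMAIP1. The effect of CASP8AP2 siRNA on day 2 minus that on day 1 was 0.51 for PMAIP1 in hTERT-RPE1 cells, and 0.46 for FAS, 0.37 for TP53I3, 0.28 for APAF1 and 0.33 for TNFRSF10B in U2OS cells. PMAIP1 in U2OS cells started from a log2 level 1.46 to 1.98 above that of hTERT-RPE1 controls, and the part of this level in the smaller rise was not tested. TNFRSF10A lay below the median of the array in U2OS cells and near it in hTERT-RPE1 controls. The part of this low signal was not tested either. Each targeted gene fell less in hTERT-RPE1 than in U2OS cells under its own siRNA, and the part of this was not tested. Groups of 2 or 3 arrays were too small for a test of single outlying arrays.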

How the results depend on the processing

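No called difference of the 10 genes changed direction under any alternative. Of the 33 calls against control, 15 held without each array in turn and 7 were lost without any 1 of them; with 2 arrays in a group, the array left alone was assumed to vary like the other groups. The fit of only the arrays compared left fewer genes called: in hTERT-RPE1 cells against control 0, 2 and 2 of 10 on days 1, 2 and 3 of CASP8AP2 siRNA, 1 for NPAT and 0 for HINFP siRNA, and in U2OS cells 0 for CASP8AP2 on days 1 and 3, 1 for NPAT and 0 for HINFP siRNA. In the same order, 28, 495, 384, 149 and 25 of all 22069 genes were called in hTERT-RPE1 cells. In U2OS cells 612, 2455, 1475 and 1108 of them were called. This fit left 2 for the line difference of day 2, 0 for the day difference in hTERT-RPE1 cells and 0 for all 6 differences between siRNAs. Beside these, 1525, 67 and between 71 and 344 of all genes were called. The fit of all 40 arrays gave 0 on day 1 and 2 on day 3 for CASP8AP2 siRNA in U2OS cells, beside 1159 and 5436 of all genes. It gave 3 and 1 for the line differences of NPAT and HINFP siRNA, 2 for the day difference in U2OS cells, 3 and 2 for CASP8AP2 against NPAT and NPAT against HINFP siRNA in hTERT-RPE1 cells, and 3 for CASP8AP2 against HINFP siRNA in U2OS cells. In the same order, 2131, 1708, 1278, 1272, 1935 and 2558 of all genes were called. With a replicate block the counts were 1 on day 1 for CASP8AP2 siRNA in U2OS cells, 2 for HINFP siRNA in hTERT-RPE1, 1 for NPAT siRNA in U2OS and 2 for NPAT against HINFP siRNA in hTERT-RPE1 cells, and no other count moved by over 1.5 times. In the same order, 1241, 919, 1852 and 827 of all genes were called. The correlation r of deviations between same-numbered arrays was -0.10 to 0.06 on days 1 and 2, -0.13 to 0.21 in hTERT-RPE1 cells on day 3 (3 of 6 group pairs positive) and -0.02 to 0.17 in U2OS cells on day 3 (5 of 6 positive, 4 over 0.1). Not every pair was over 0.1, so the numbers were not taken to pair the arrays. Cyclic loess gave 1 for NPAT siRNA in U2OS cells, and 2 each for CASP8AP2 and HINFP against NPAT siRNA in hTERT-RPE1 cells, beside 1638, 541 and 868 of all genes. Centring on the median gave 0 and 1 for CASP8AP2 siRNA on day 1 and HINFP siRNA in U2OS cells, 2 for the line difference of NPAT siRNA and 0 for the day difference in hTERT-RPE1 cells. In the same order, 1275, 2122, 771 and 107 of all genes were called. For CASP8AP2 siRNA on day 3 in U2OS cells centring kept the count at 1, beside 4326 of all genes, but with BAX, lower, in place of APAF1. Without the dimmest 25% of genes and with trend and robust settings, CASP8AP2 and HINFP against NPAT siRNA in hTERT-RPE1 cells gave 2 each, and the latter settings gave 2 for the line difference of NPAT siRNA. Without the dimmest genes, 553 and 901 of all 16552 genes left were called in these comparisons. With trend and robust settings 579 and 1016 of all genes were called, and 902 for the line difference.

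Leaving out 1 array of days 1 or 2, the count ranged from 0 to 1 for CASP8AP2 siRNA against control on day 1 in U2OS cells. It ranged from 2 to 5 for the line difference of CASP8AP2 siRNA on day 2. For the day differences it ranged from 0 to 1 in hTERT-RPE1 and from 2 to 4 in U2OS cells. Counts over all genes in these fits are not given, so a loss over all genes cannot be told apart from a change in these genes. On day 3 a fit without 1 array has 1 array in a group, and the lost calls are given above with their effect sizes. Wherever limma called 0 of the 10, between 1 and 6 had an unadjusted p under 0.05. Over all genes, the fit of only the arrays compared called fewer in all 26 comparisons, in 19 of them by over 1.5 times (1.68 to 36.6 times, with 25 rather than 915 for HINFP siRNA in hTERT-RPE1 cells), and the fit of all 40 arrays fewer in all 10 of days 1 and 2 and more in all 16 of day 3, in 14 of these by over 1.5 times (1.67 to 2.79 times, with 2131 rather than 764 for the line difference of NPAT siRNA). On day 3, 2 arrays per group limit what can be called.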
